A study of Mus musculus with 11 samples.

Results

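The 9 synaptic vesicle and release genes described here encode parts of the apparatus by which neurons release transmitter, measured in the embryonic mouse cortex. They are the genes of the fusion machinery (Snap25, Stx1a and Vamp2), of the calcium sensor Syt1, of the vesicle proteins Syp, Syn1 and Rab3a, and of the vesicular glutamate transporters Slc17a6 and Slc17a7. They were taken as a named list, with symbols matched to the gene identifiers of the count files, and 9 of 9 were found among 46078 identifiers. No member was without counts in any library (0 of 9), and member counts ran from 329 to 5229 per library. All 9 passed the filter on low counts in each comparison.

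Synaptic vesicles are filled with transmitter by vesicular transporters, tethered and docked at the active zone, and fused with the plasma membrane when calcium enters the terminal. Fusion is driven by the SNARE bundle that Vamp2 on the vesicle forms with Stx1a and Snap25 on the plasma membrane, and Syt1 couples it to calcium. In the developing cortex these genes are switched on as newborn neurons leave the ventricular zone, extend axons and mature, and cycling progenitors express little of them.

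Polyadenylated RNA of CD-1 mouse embryos was sequenced in 11 libraries from 5 groups. At E15.5 the samples were GFP-positive cells sorted after electroporation of wild-type brains at E12.5, with the empty plasmid pCIG2 (3 libraries, called GFP controls) or with pCIG2-L3mbtl3 (3 libraries, called gain). L3mbtl3 is an MBT-domain protein, which the study's title describes as a partner of the Polycomb complex PRC1. At E12.5 the samples were microdissected dorsal telencephalon, with no electroporation or sorting, of genotype L3mbtl3 +/- (2 libraries, het), wild-type (1 library) and L3mbtl3 -/- (2 libraries). The study counts het and wild-type as controls, which are pooled here as 3 E12.5 controls. In the sorted groups only cells that took up the plasmid, and their descendants, were collected, and the sources used here do not name the promoter that drives L3mbtl3. Sorted CD15+ cells of E14.5 embryos, named in the study's design, were not analysed here. Nothing in the labels ties a library to its own embryo, and p-values therefore describe the spread among these libraries alone, which may be technical.

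Library totals ran from 16527551 to 26658718 counts. L3mbtl3 (chromosome 10, 26274468 to 26375185, minus strand) measured 1223 ± 315 CPM (counts scaled to library size) in the gain libraries and 54.5 ± 4.77 in the GFP controls (SD, n = 3 each). The libraries labelled knockout had no lower level, at 67.1 and 70.4 CPM against 57.5, 57.8 and 58.1 in the E12.5 controls. There L3mbtl3 was called higher, with a log2 fold change of 0.27 (SE 0.0539, edgeR adjusted p = 0.0128). Counts summed over exons cannot show a deleted exon, so the groups are named by their labels and every direction in the loss comparison rests on those labels. GFP control replicate 3 stood apart among the sorted libraries in its 8 apical progenitor markers, which summed to 609.6 CPM against 1779 and 1298 in GFP control replicates 1 and 2 and 1036 to 1144 in the gain libraries. Its 7 GABAergic neuron markers summed to 14.2 CPM, against 811 and 261 in GFP control replicates 1 and 2, and gain replicate 3 had a like low sum of 12.2 CPM beside 216 and 211 in gain replicates 1 and 2. A library was marked female where its Xist count exceeded its summed Y-linked counts, and male otherwise. This marked gain replicates 1 and 3 and knockout replicate 2 as female and the other 8 libraries as male. A pool of both sexes would also receive a single label by this rule.

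The upstream sequences of 4 members are shown because these genes mark the extremes of the patterns below. Syn1 and Rab3a had the largest differences between E15.5 and E12.5, and Slc17a6 and Slc17a7 the smallest. The sequences come from RefSeq (GRCm38.p6), run 5′ to 3′ on the gene's strand and end at the base before the start of the gene in the count files. They lie at chrX:20921005-20921168 (minus strand) for Syn1, chr8:70754453-70754678 (plus) for Rab3a, chr7:51621580-51621829 (plus) for Slc17a6 and chr7:45163671-45163920 (plus) for Slc17a7. Capitals mark 3 motifs searched on both strands, namely TTCAGCACC, which is the left arm of the RE1 element bound by the repressor Rest, TGACGTCA, the cAMP response element, and GGGCGG, the GC box.
Syn1: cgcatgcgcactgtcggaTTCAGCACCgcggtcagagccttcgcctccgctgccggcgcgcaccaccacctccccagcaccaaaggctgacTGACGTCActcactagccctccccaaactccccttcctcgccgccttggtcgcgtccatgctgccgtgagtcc
Rab3a: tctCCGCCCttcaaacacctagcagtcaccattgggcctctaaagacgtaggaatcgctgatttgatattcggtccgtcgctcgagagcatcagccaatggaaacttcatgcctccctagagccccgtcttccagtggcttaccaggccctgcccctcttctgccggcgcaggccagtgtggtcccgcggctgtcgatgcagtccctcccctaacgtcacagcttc
Slc17a6: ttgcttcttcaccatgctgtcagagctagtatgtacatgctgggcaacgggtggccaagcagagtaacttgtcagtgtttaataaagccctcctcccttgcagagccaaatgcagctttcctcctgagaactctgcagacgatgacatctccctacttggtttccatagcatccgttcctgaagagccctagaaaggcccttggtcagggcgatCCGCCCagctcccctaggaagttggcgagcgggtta
Slc17a7: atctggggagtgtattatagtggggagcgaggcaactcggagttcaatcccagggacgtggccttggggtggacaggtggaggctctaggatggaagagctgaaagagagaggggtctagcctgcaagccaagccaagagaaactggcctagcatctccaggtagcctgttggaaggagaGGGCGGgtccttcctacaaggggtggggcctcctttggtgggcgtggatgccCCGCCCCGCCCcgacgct
Windows of 300 bases around the start (250 before, 50 after) were at hand for 7 of the 9 members. TTCAGCACC stood in the window of Syn1 alone among these 7, and in 122 of all 32851 windows (0.371%). TGACGTCA was likewise found in Syn1 alone, and in 588 of all windows (1.79%). Some members had more than 1 window. The GC box stood in 6 of the 10 windows of these members, which belonged to 6 of the 7, and in 35.7% of all windows. A match of letters is a description of the sequence and no measure of binding.

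The E15.5 GFP controls had higher levels of 7 of the 9 genes than the E12.5 controls, by 2.55-fold for Syt1 to 7.70-fold for Rab3a. Every GFP control lay above every E12.5 control for these 7, as was so for 34.0% of all genes. The vesicular glutamate transporters Slc17a6 and Slc17a7 were not called. Higher calls covered 31.1% of the 15968 genes tested, and calls in either direction 62.3%. A gene was called, and is said to have risen or fallen, at a Benjamini-Hochberg adjusted p under 0.05 in edgeR's quasi-likelihood test over all genes. The median log2 fold change was 1.66 over the 9 members and -0.02 over all genes. These arms differ in embryonic day, in sorting and electroporation and in genotype, and the contributions of these cannot be told apart. In such bulk libraries a larger share of neurons and more RNA of a gene per neuron cannot be told apart either.

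**Figure D1:**
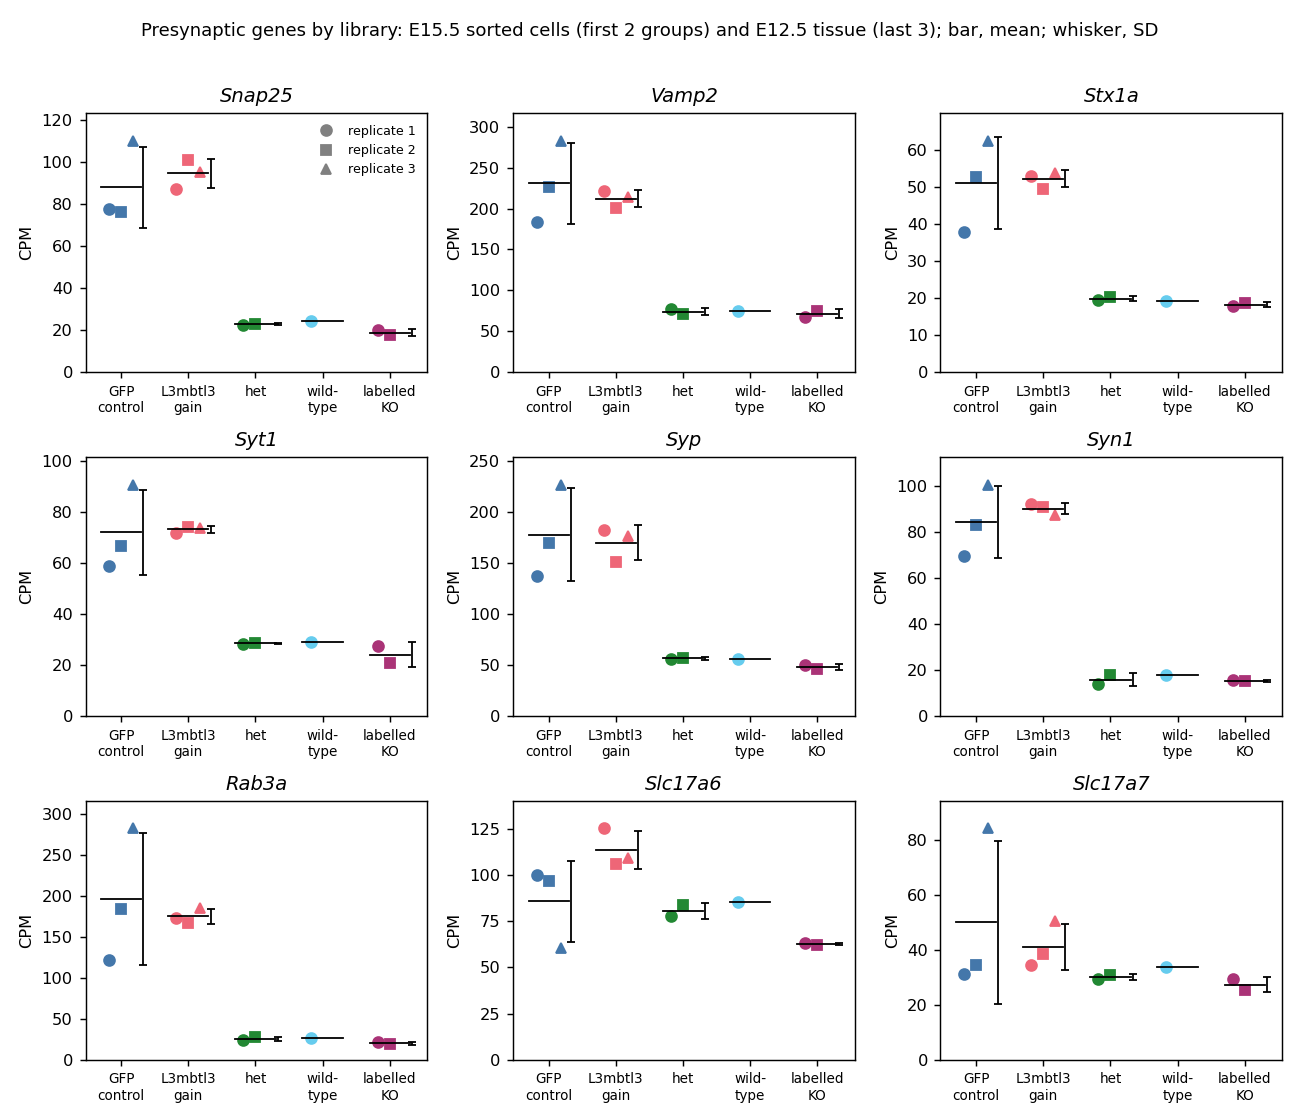
Level of each gene in CPM (y axis, from 0, scales differ) in every library of the 5 groups (x axis), with the group mean as a bar and the SD as a whisker. For 7 genes every E15.5 library lies above every E12.5 library, while Slc17a6 and Slc17a7 have GFP control values of 60.5 and 31.1 CPM, under or inside the E12.5 range.

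Among the fusion proteins, Snap25 (ENSMUSG00000027273, chromosome 2, 136713453 to 136782428, GRCm38) encodes the SNARE that gives 2 helices to the fusion bundle. Its level was 77.7, 76.3 and 110.2 CPM among the GFP controls, as against 22.6, 23.2 and 24.3 CPM in the 2 het libraries and the wild-type library. The groups did not overlap, and GFP control replicate 3 was the highest. Snap25 rose by 1.94 (log2, SE 0.167, edgeR adjusted p = 0.000148). Vamp2 (ENSMUSG00000020894, chromosome 11, 69088490 to 69092384) encodes synaptobrevin, the SNARE of the vesicle membrane. It measured 183, 226 and 282 CPM among the GFP controls against 76.8, 71.6 and 74.7 CPM at E12.5, again without overlap. Its log2 fold change was 1.66 (SE 0.162, edgeR adjusted p = 0.000237). Stx1a (ENSMUSG00000007207, chromosome 5, 135023482 to 135051100), the plasma membrane syntaxin, had 37.8, 52.8 and 62.4 CPM among the GFP controls and 19.4, 20.3 and 19.2 CPM at E12.5. The lowest sorted library, GFP control replicate 1, was still above every E12.5 control. Stx1a rose by 1.40 (log2, SE 0.191, edgeR adjusted p = 0.000929).

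Syt1 (ENSMUSG00000035864, chromosome 10, 108497650 to 109010982, minus strand) encodes the calcium sensor of fast release. It measured 58.8, 66.9 and 90.8 CPM among the GFP controls, with 28.4, 28.7 and 29.1 CPM in the E12.5 controls. The arms were separate, and the rise of 1.35 (log2, SE 0.171, edgeR adjusted p = 0.000676) was the smallest of the 7. Syp (ENSMUSG00000031144, X chromosome, 7638471 to 7653256) encodes synaptophysin, an abundant membrane protein of the vesicle. Its GFP control levels of 137, 170.0 and 227 CPM lay above the E12.5 levels of 55.8, 57.4 and 56.2 CPM in every library. It rose by 1.68 (log2, SE 0.186, edgeR adjusted p = 0.000391).

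Syn1 and Rab3a rose most. Syn1 (ENSMUSG00000037217, X chromosome, 20860511 to 20921004, minus strand) encodes synapsin I, the phosphoprotein that ties vesicles to the reserve pool. It had 69.8, 82.9 and 101 CPM among the GFP controls against 13.8, 17.97 and 17.6 CPM at E12.5, a rise of 2.38 (log2, SE 0.186, edgeR adjusted p = 0.000105). Rab3a (ENSMUSG00000031840, chromosome 8, 70754679 to 70758677) encodes the vesicle GTPase that takes part in docking and priming. It went from 23.9, 27.3 and 26.6 CPM at E12.5 to 122, 184 and 282 CPM among the GFP controls, the widest spread of any of the 7 called genes. Its log2 fold change was 2.94 (SE 0.310, edgeR adjusted p = 0.000319). Each of these 7 genes was called in all 6 fits that left out 1 library. Without GFP control replicate 3 the log2 fold changes were lower, at 1.15 for Syt1 and 2.59 for Rab3a as the ends of the range.

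Slc17a6 (ENSMUSG00000030500, chromosome 7, 51621830 to 51671125) encodes VGLUT2, the vesicular glutamate transporter that is prominent in early neurons and in the thalamus. Its level was 99.9, 97.02 and 60.5 CPM among the GFP controls, with 77.7, 83.6 and 85.2 CPM in the E12.5 controls. The arms overlapped, since GFP control replicate 3 was the lowest of the 6 libraries and the other GFP controls the highest. The log2 fold change of 0.08 (SE 0.189, edgeR adjusted p = 0.719) became -0.18 when libraries were scaled by their totals alone, and 0.28 when GFP control replicate 3 was left out, with a call (edgeR adjusted p = 0.0159). Voom with sample weights called it with all 6 libraries (0.23, adjusted p = 0.0339). With the replicate number as a block edgeR also called it (0.28, adjusted p = 0.0260). That block in effect leaves out GFP control replicate 3, so it largely repeats the fit without that library. Slc17a7 (ENSMUSG00000070570, chromosome 7, 45163921 to 45176138) encodes VGLUT1, the main transporter of mature cortical glutamatergic terminals. It had 31.1, 34.7 and 84.2 CPM among the GFP controls, with 29.3, 30.8 and 33.9 CPM in the E12.5 controls. GFP control replicate 3 alone was far above the E12.5 range, and GFP control replicate 1 lay inside it. The log2 fold change was 0.70 (SE 0.383, edgeR adjusted p = 0.153), 0.95 and called (edgeR adjusted p = 0.0456) when GFP control replicate 1 was left out, and 0.09 without GFP control replicate 3.

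**Figure D2:**
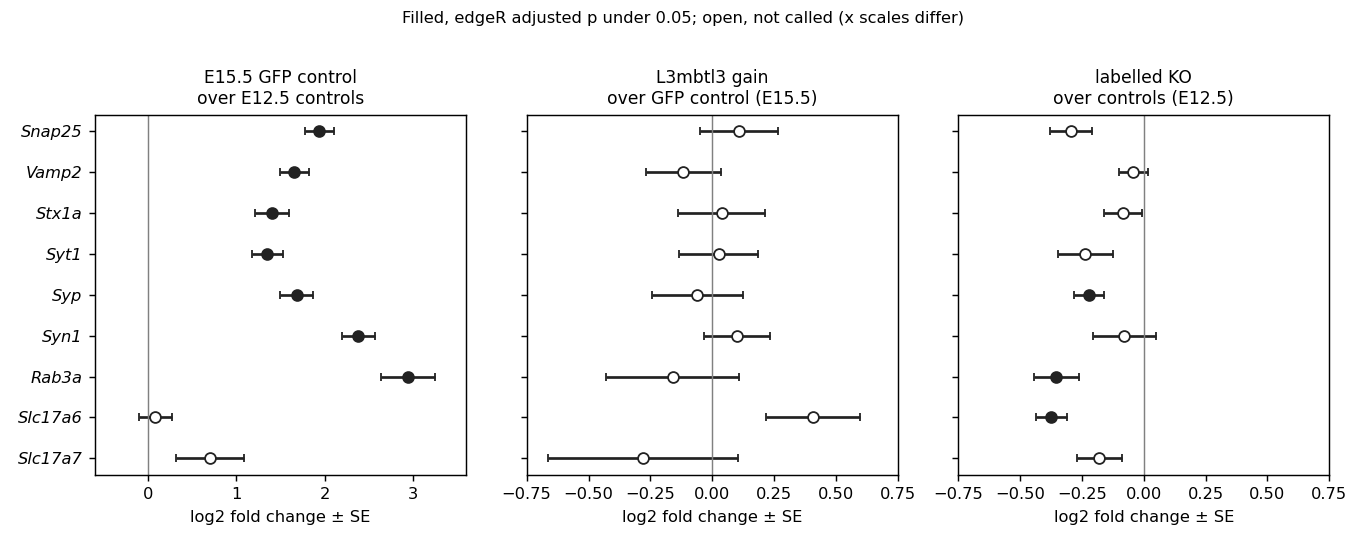
Log2 fold change with its SE (x axis, scales differ between panels) for the 9 genes (y axis) in the 3 comparisons, filled where edgeR's adjusted p was under 0.05. 7 points are filled and above 0 between days, 0 in the gain comparison and 3, all below 0, in the loss comparison.

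Compared per kilobase of exon, the order of the genes also differed between days. The length used is that of all annotated exons of a gene, not of the transcripts expressed here. The order between genes is therefore approximate, and a gene with long annotated exons can be placed too low. In the E12.5 controls Vamp2 (19.5 ± 0.699 CPM per kb, SD, n = 3) and Slc17a6 (19.0 ± 0.919) led and did not differ beyond their spread. Rab3a (11.7 ± 0.795), Syp (10.8 ± 0.154) and Slc17a7 (10.7 ± 0.790) followed within their spread of each other, then Stx1a (7.36 ± 0.228) and Syn1 (4.99 ± 0.705). Syt1 (3.45 ± 0.0440) and Snap25 (3.44 ± 0.128) closed the order and were not distinguishable. In the GFP controls Rab3a came first (88.1 ± 36.3 CPM per kb) and Vamp2 next (60.6 ± 13.04), with overlapping spreads, ahead of Syp (34.2 ± 8.74) and Syn1 (25.6 ± 4.69). Slc17a6 (19.9 ± 5.09) came next, level with Stx1a (19.1 ± 4.66) and Slc17a7 (17.0 ± 10.1) within the spread. Snap25 (12.97 ± 2.82) and Syt1 (8.66 ± 2.00) were again the lowest per length.

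Of 103 other presynaptic genes in 5 groups 99 were tested, of which 58 rose and 13 fell, with a median log2 fold change of 0.95. Active zone genes mostly rose (17 of 22, 0 fell, median 1.43), among them Bsn, the scaffold Bassoon (1.74), and Erc2, a scaffold of the active zone (1.51). Of 13 genes of vesicle endocytosis 11 rose and 1 fell (median 1.16). Of 31 tested genes of vesicle proteins 20 rose and 6 fell (median 1.04). The release machinery was split, with 8 of 22 risen and 4 fallen and a median of -0.16. Of 11 transmitter loading genes 2 rose and 2 fell. When libraries were scaled by their totals alone, the median of all genes shifted to -0.30 and that of the members to 1.38. That scaling turned 4963 higher and 4992 lower calls over all genes into 3590 and 6525, and the wider presynaptic counts into 50 risen and 19 fallen.

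Within these groups close relatives of the members went both ways. In the release machinery Cplx1, the complexin that clamps and promotes fusion, rose by 3.47 (log2, SE 0.391, edgeR adjusted p = 0.000417) from 7.46 ± 0.178 to 81.1 ± 42.2 CPM (n = 3 each). Unc13a, the Munc13-1 priming factor, rose by 2.00. Synaptotagmins that are relatives of Syt1 rose too, with Syt6 at 3.304 and Syt16 at 3.02. On the other side Cadps2, a priming factor of dense-core vesicles, had a log2 fold change of -2.15 and Stxbp6, the syntaxin-binding amisyn, of -1.98. Sv2b, a vesicle glycoprotein, fell from 25.1 ± 0.705 to 1.48 ± 1.26 CPM (log2 fold change -4.05, SE 0.539, edgeR adjusted p = 0.000851). Ston2, an endocytic adaptor for synaptotagmin, stood at -2.53.

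Slc17a8, the third vesicular glutamate transporter (VGLUT3), fell from 5.23 ± 1.20 CPM in the E12.5 controls to 0.143 ± 0.129 in the GFP controls (log2 fold change -5.10, SE 0.618, edgeR adjusted p = 0.000570). That GFP control mean was under the 0.151 to 0.177 CPM that 3 counts were worth in these libraries, so the size of the fall is uncertain. Slc18a2, the vesicular monoamine transporter, was called higher (3.52, edgeR adjusted p = 0.0403) but with 30.2 ± 37.3 CPM among the GFP controls. Its call held in 1 of the 6 fits that left out a library, being lost without GFP control replicate 1, GFP control replicate 2 or any 1 of the 3 E12.5 controls, with log2 fold changes between 1.79 and 4.12. The genes of GABA loading and synthesis, Slc32a1, Gad1 and Gad2, had log2 fold changes of 3.03, 2.57 and 2.87 and were not called.

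SNARE and trafficking genes that act in most cell types had no common direction, with 8 of 22 risen and 10 fallen and a median of -0.14. Log2 fold changes in this list ran from -2.55 to 1.33, and only some general relatives of members were lower in the GFP controls. Snap23, the relative of Snap25 in secretion outside neurons, fell by 1.09 on the log2 scale, Vamp3 by 0.81 and Sypl, the relative of Syp, by 1.21. Vamp8 and Stxbp3 had log2 fold changes of -2.55 and -1.77. Snap23, Vamp3 and Sypl were chosen after their values were seen.

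**Figure D3:**
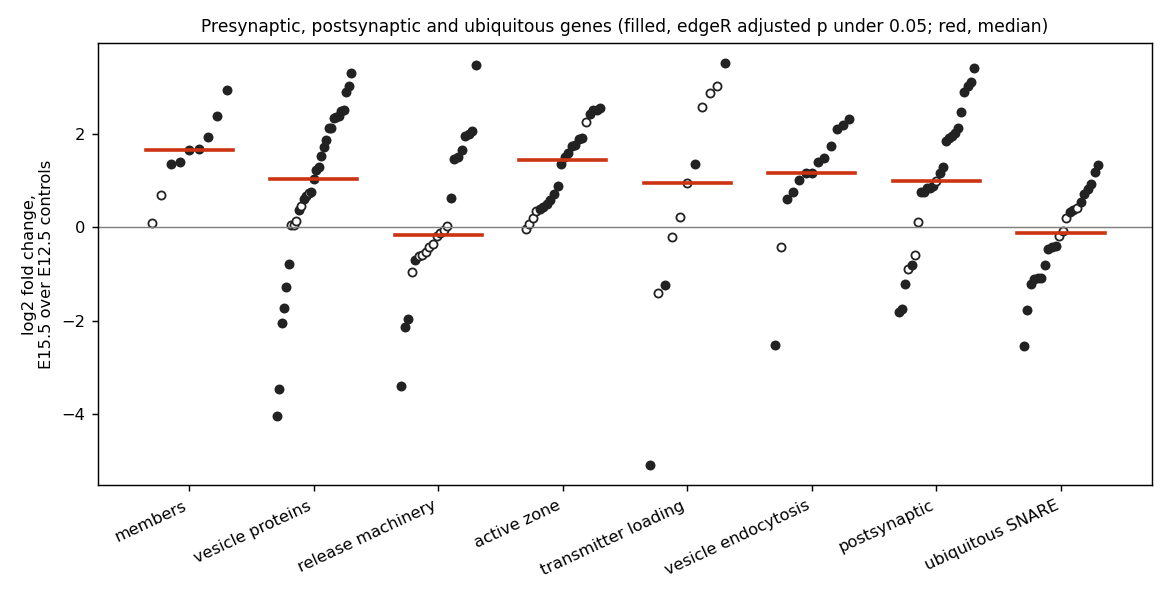
Log2 fold change between the E15.5 GFP controls and the E12.5 controls (y axis) of every tested gene in 8 lists (x axis), filled where edgeR's adjusted p was under 0.05, with the list median in red. The medians are 1.66 for the 9 members, 1.43 for the active zone and -0.14 for ubiquitous SNARE genes.

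Postsynaptic genes rose in 17 of 25 cases and fell in 4 (median 0.98). The kinase subunit Camk2b rose by 3.42, the adhesion protein Lrrtm1 by 3.11 and the scaffold Dlgap3 by 3.02, while Camk2a, the other main subunit of the kinase, had a log2 fold change of -1.82. Of 12 regulators of neuronal genes 5 rose and 5 fell. Myt1l, a zinc finger factor of neurons, rose by 3.16 (log2, SE 0.112, edgeR adjusted p = 2.09e-05). Rest, the repressor that binds RE1 elements in non-neuronal cells, measured 24.6 ± 4.39 CPM against 52.5 ± 2.16 at E12.5 (log2 fold change -1.07, edgeR adjusted p = 0.000726), a gene chosen after its value was seen.

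Markers of cell types moved beside the members. The 10 pan-neuronal markers summed to 6423 to 8699 CPM among the GFP controls and 2264 to 2424 CPM in the E12.5 controls, and 9 of 10 rose. The 8 apical progenitor markers ran the other way, from 609.6 to 1779 CPM against 2709 to 2852, and 5 of 8 fell. Of 6 intermediate progenitor markers 3 rose and 2 fell, with sums of 855 to 1139 CPM against 718 to 758. Cajal-Retzius markers (5 of 5 fell) summed to 9.08 to 20.4 CPM among the GFP controls, with 1 marker at 0 counts in 1 library, and to 316 to 374 CPM in the E12.5 controls. Endothelial markers (5 of 5 fell) summed to 8.95 to 11.02 CPM against 294 to 352, microglial markers (3 of 5 fell) to 12.2 to 26.1 CPM against 47.6 to 51.4. GABAergic markers (2 of 7 rose) summed to 14.2 to 811 CPM against 38.4 to 61.4. The part of these cell types in the members' differences was not tested.

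**Figure D4:**
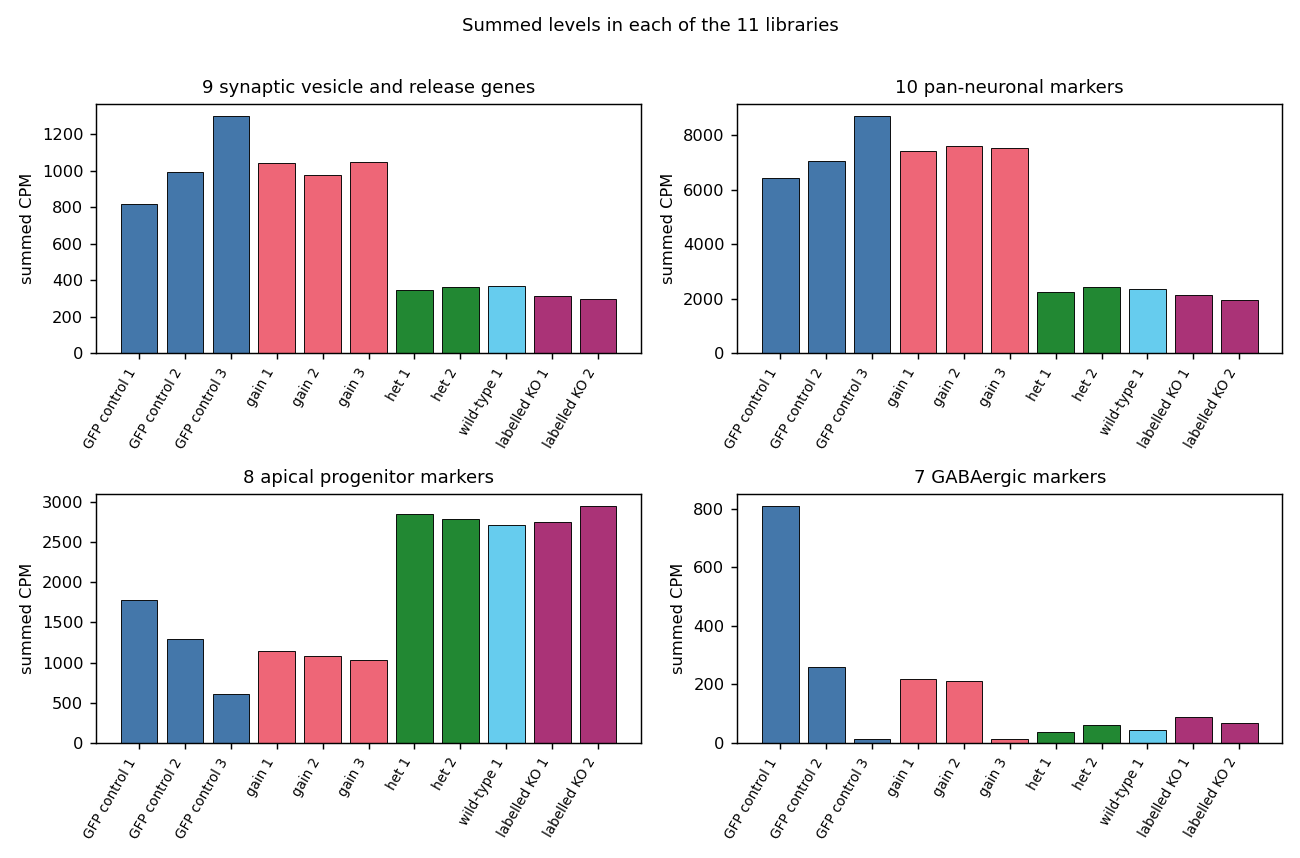
Summed CPM (y axis, from 0) of the 9 genes and of 3 marker lists in each of the 11 libraries (x axis). The members' sum is 817 to 1300 CPM among the GFP controls and 299.6 to 367 CPM at E12.5, and the apical progenitor sum is lowest, 609.6 CPM, in the library where the members' sum is highest.

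Electroporation of L3mbtl3 gave no called change of any member at E15.5. In all, 2 of 14698 genes (0.0136%) were called by edgeR, with 1264 at an unadjusted p under 0.05, and the members' median log2 fold change was 0.03 against -0.03 over all genes. DESeq2 called 122 genes and voom with sample weights 2001. For 8 of the 9 members the 3 gain libraries lay inside the range of the GFP controls. The share of all genes of which this held was not counted, so it cannot be read as a result about the members.

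Slc17a6 was the exception. It measured 125, 106 and 109 CPM in the gain libraries against 99.9, 97.02 and 60.5 CPM among the GFP controls, so the arms did not overlap, as was the case in the higher direction for 9.21% of all genes. The log2 fold change of 0.41 (SE 0.189) did not pass (edgeR adjusted p = 0.585). It was 0.21 without GFP control replicate 3 and 0.54 without GFP control replicate 1, uncalled in both. Of the other members, the fusion genes had log2 fold changes of 0.11 for Snap25 (SE 0.157), -0.12 for Vamp2 (SE 0.153) and 0.04 for Stx1a (SE 0.176). Syt1 stood at 0.03 (SE 0.159), Syp at -0.06 (SE 0.183), Syn1 at 0.10 (SE 0.134), Rab3a at -0.16 (SE 0.269) and Slc17a7 at -0.28 (SE 0.383). Their edgeR adjusted p values lay between 0.801 and 0.957, and each of these differences was at or under its SE.

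The spread was wider among the GFP controls than among the gain libraries for 9 of 9 members. The share of all genes with a wider spread there was not counted, so this cannot be read as a trait of the members. Rab3a had 173, 167 and 185 CPM in the gain libraries, within 1.11-fold of each other, and the GFP controls differed up to 2.32-fold. Syt1, at 71.9, 74.2 and 73.9 CPM in the gain libraries, varied by 1.03-fold, and by 1.54-fold in the GFP controls. GFP control replicate 3 was the highest of its group for 8 members and the lowest for Slc17a6, and GFP control replicate 1 was the lowest for 7. The directions of the small differences rested on these libraries: without GFP control replicate 3, Syp, Vamp2, Slc17a7 and Rab3a had log2 fold changes of 0.16, 0.06, 0.33 and 0.20, and without GFP control replicate 1 Syt1, Syn1 and Stx1a had -0.09, -0.01 and -0.13.

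None of the 94 wider presynaptic genes tested in the sorted cells was called (0 rose, 0 fell, median 0.00), nor was any of the 25 postsynaptic genes. Without GFP control replicate 1 edgeR called 1 of the wider genes, DESeq2 called 2, and voom with sample weights called 18, of which 17 rose. GABAergic markers (0 of 7 called, 7 of 7 lower) summed to 12.2 to 216 CPM in the gain libraries, lowest in gain replicate 3. Microglial markers (0 of 5 called, 5 of 5 lower) summed to 4.85 to 6.51 CPM there, and endothelial markers (0 of 5 called, 5 of 5 lower) to 2.19 to 3.90 CPM, with 1 gene at 0 in 1 library. Pan-neuronal markers, at 7417 to 7601 CPM, and apical progenitor markers, at 1036 to 1144 CPM, lay inside the range of the GFP controls.

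At E12.5 the mean of the libraries labelled knockout was lower than that of the controls for all 9 members, of which 3 were called: Slc17a6, Rab3a and Syp. Over all genes tested, 8190 of 16361 were lower. Lower calls covered 3.78% of 16361 genes tested and calls in either direction 7.41%. The median log2 fold change was -0.22 over the members and 0.00 over all genes. The differences were at most 1.30-fold, for Slc17a6, a gene that was not called between the days.

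Slc17a6 had 63.3 and 62.2 CPM in the libraries labelled knockout against 77.7, 83.6 and 85.2 CPM in the 2 het libraries and the wild-type library. Both were well under every control. It had a log2 fold change of -0.37 (SE 0.0626, edgeR adjusted p = 0.00452) and was called in all 5 fits that left out 1 library, with log2 fold changes from -0.43 to -0.33. The call was lost only when all 11 libraries shared 1 estimate of the spread (edgeR adjusted p = 0.973), among the alternatives run. Rab3a, at 21.3 and 18.8 CPM against 23.9, 27.3 and 26.6, fell by 0.35 (SE 0.0911, edgeR adjusted p = 0.0379). Its call was lost without het replicate 2 (edgeR adjusted p = 0.123), knockout replicate 2 (0.239) or the wild-type library (0.127). Syp, at 49.8 and 45.9 CPM against 55.8, 57.4 and 56.2, fell by 0.22 (SE 0.0593, edgeR adjusted p = 0.0432). Its call was lost without het replicate 1 (edgeR adjusted p = 0.0538), het replicate 2 (0.139), knockout replicate 2 (0.246) or the wild-type library (0.142). Both were also lost with DESeq2 (adjusted p = 0.0523 for Rab3a and 0.0849 for Syp) and with voom (0.0788 and 0.0652). With embryo sex as a term both calls were lost too (log2 fold changes of -0.26 and -0.16). There the knockout effect rests on knockout replicate 1, because knockout replicate 2 is the only E12.5 library marked female.

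The other 6 members did not pass. Snap25 had 20.1 and 17.6 CPM against 22.6, 23.2 and 24.3, a log2 fold change of -0.29 (SE 0.0846, edgeR adjusted p = 0.0596), and was called without knockout replicate 1 (0.0246) or without the filter on low counts (0.00921). Syt1 had 27.6 and 20.7 CPM against 28.4, 28.7 and 29.1, with -0.24 (SE 0.1103, edgeR adjusted p = 0.253), and was called in the same pair of settings (0.00510 and 0.0325). Its 2 libraries labelled knockout differed by more than its 3 controls. Slc17a7 stood at -0.18 (SE 0.0914), Stx1a at -0.08 (SE 0.0768), Syn1 at -0.08 (SE 0.127) and Vamp2 at -0.04 (SE 0.0577), with edgeR adjusted p values from 0.287 to 0.787. For 6 of the 9 members both libraries labelled knockout were under every control, which in the lower direction held for 22.3% of all genes. Knockout replicate 2 was under knockout replicate 1 for 7 of 9.

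Among the wider presynaptic genes 8 of 99 rose and 10 fell in the libraries labelled knockout (median -0.05), with 4 to 20 falling when 1 library was left out. Synpr, synaptoporin, a relative of Syp, fell from 17.9 ± 1.76 (n = 3) to 6.88 ± 0.538 CPM (n = 2), a log2 fold change of -1.36 (SE 0.123, edgeR adjusted p = 9.6e-05). Rab3d, a relative of Rab3a, stood at -0.63, and Slc6a15, a neutral amino acid transporter, at -0.84. In the other direction Dnm1, the neuronal dynamin of vesicle retrieval, rose from 23.0 ± 0.821 to 33.7 ± 2.92 CPM (log2 fold change 0.57, SE 0.0729, edgeR adjusted p = 0.00103). Syt9, a calcium sensor related to Syt1, rose by 0.64, Cadps2 by 0.60 and Stxbp5, the syntaxin-binding tomosyn, by 0.30. In 1 fit of all 11 libraries no wider presynaptic gene was called (0 rose, 0 fell), the 7 named here included. These 7 genes were called in all 5 fits that left out a library.

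Other calls rested on single libraries. Sh3gl2, endophilin A1, had a log2 fold change of -0.54 and lost its call without het replicate 2 or knockout replicate 2. Stxbp5l, tomosyn-2, at -0.90, kept it only without knockout replicate 1. Rab27b (0.92) lost its call without het replicate 1, knockout replicate 1 or the wild-type library, Rims4 (0.66) without any of 4 libraries and Stxbp6 (0.26) without any 1 of the 5. Of 25 postsynaptic genes 7 fell and 0 rose, among them Arc (-0.90), the immediate early gene, Dlg2 (-0.79) and Lrrtm2 (-0.79). The call of Arc held only without knockout replicate 2, and those of Dlg2 and Lrrtm2 were lost without het replicate 2, knockout replicate 2 or the wild-type library. Rest rose by 0.28 (log2, SE 0.0555, edgeR adjusted p = 0.0121), from 53.9, 50.03 and 53.6 CPM to 63.7 and 62.3 CPM, and lost its call without het replicate 2 (0.0586). No ubiquitous SNARE gene was called (0 of 22), with 16 of 22 lower.

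Cell type markers went in both directions in the libraries labelled knockout. Of 10 pan-neuronal markers 4 fell in the libraries labelled knockout, with sums of 1945 and 2143 CPM against 2264 to 2424 in the controls. Intermediate progenitor markers fell in 3 of 6 cases, with sums of 587 and 606 CPM against 718 to 758. GABAergic markers rose in 2 of 7 cases (69.1 and 88.4 CPM against 38.4 to 61.4), and apical progenitor sums were 2751 and 2958 CPM against 2709 to 2852. Of the 8 apical progenitor markers 2 fell, Fabp7 (log2 fold change -0.24) and Slc1a3 (-0.33), and 0 rose. Cajal-Retzius sums were 293 and 311 CPM against 316 to 374, with 0 of 5 markers called. The part of these cells in the lower values of the members was not tested.

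The balance of Slc17a6 to Slc17a7 set GFP control replicate 3 apart. Per kilobase of exon, Slc17a6 was 1.47-fold to 2.48-fold over Slc17a7 in 10 of the 11 libraries. The size of this ratio depends on the annotated lengths, while its differences between libraries do not. In GFP control replicate 3 the ratio was 0.489, against 2.19 and 1.905 in GFP control replicates 1 and 2. The gain libraries had ratios of 2.48, 1.88 and 1.47, the het libraries 1.80 and 1.85, the wild-type library 1.71 and the libraries labelled knockout 1.47 and 1.67. On the log2 scale the gain libraries differed from the GFP controls by 0.58 (two-sided exact permutation p = 0.7), or by -0.10 without GFP control replicate 3. The libraries labelled knockout differed from the E12.5 controls by -0.19 (exact permutation p = 0.2), both lying under every control. The GFP controls differed from the E12.5 controls by -0.49 (exact permutation p = 1), or by 0.19 without GFP control replicate 3. The design could not reach a p under 0.1 with 3 libraries against 3, nor under 0.2 with 2 against 3.

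**Figure D5:**
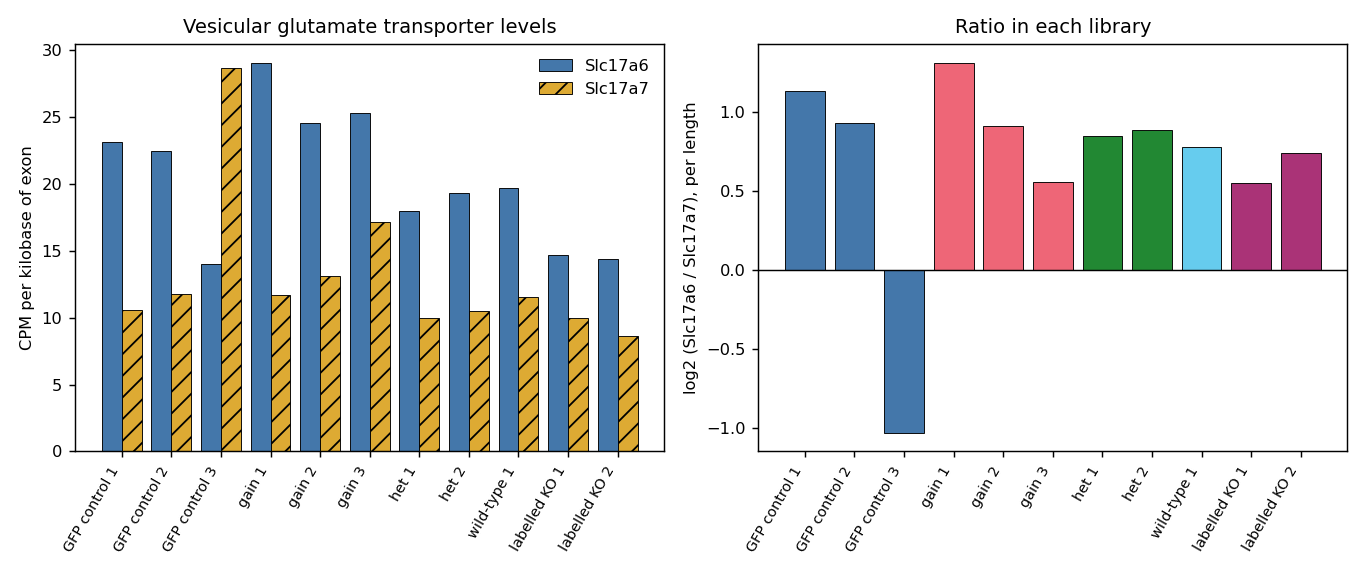
Left, level of Slc17a6 and Slc17a7 in CPM per kilobase of exon (y axis, from 0) in each library (x axis). Right, log2 of their ratio per library, which is above 0 in 10 libraries and -1.03 in GFP control replicate 3.

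Over the 11 libraries, the gene whose log2(CPM + 1) profile was most like that of a member, by Pearson's r among 17793 genes, was another member in 1 case, Rab3a for Syp (r = 0.998). For Snap25 it was Dpysl3 (r = 0.999), for Syt1 Dnajc6 (r = 0.996), for Syn1 Taok3 (r = 0.998), for Vamp2 Lrfn1 (r = 0.999), for Stx1a Acvr1 (r = 0.999) and for Rab3a Tmem229b (r = 0.999). The values for Slc17a6 with Ahi1 (r = 0.957) and Slc17a7 with Cyth3 (r = 0.964) were lower. The 6 sorted and the 5 dissected libraries form separate clusters, which these r values follow, so they serve only to describe the profiles.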

How the data were processed

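Each deposited file gives unnormalised read counts for every gene. They were made by featureCounts 2.0.1 in its reversely stranded mode from an Ensembl GRCm38 annotation, per the file headers. The recorded command had no option for multi-mapping or overlapping reads, per the file headers. Libraries were stranded and polyA-selected, read as 75-base single ends, per the labels' protocols. The submitters' processing notes name HISAT2 2.2.1, SAMtools 1.9, CASAVA 1.9, deepTools 3.3.0 and FastQC 0.11.8. Symbols were available for 45143 of 46078 identifiers, and 0 rows lacked a gene.

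Groups came from the sample titles. Counts were tested with edgeR 4.0.16 in R 4.3.3 (robust quasi-likelihood fit, TMM factors, filterByExpr, two-sided, Benjamini-Hochberg adjustment over all genes tested), using only the libraries of each comparison. The SE is the absolute log2 fold change over the square root of F. CPM carry TMM factors over all 11 libraries, given as mean ± SD. One count was worth 0.0351 to 0.0589 CPM, and a count of 0 allowed up to 3 counts, 0.105 to 0.177 CPM, for counting error only. The script was tested on simulated counts. Alternatives were DESeq2 1.42.0, limma 3.58.1 voom with sample quality weights, library totals as scaling, no count filter, 1 fit of all 11 libraries, the replicate number as a block, embryo sex as a term, and leaving out each library. Leave-one-out values of the transporter ratio were added after seeing the data.

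Members, lists and tests were chosen with earlier results of these data known. Named genes were the members, L3mbtl3, for each direction up to 8 called genes of largest fold change and a mean log2 CPM of at least 1 from the wider presynaptic, ubiquitous SNARE, postsynaptic and regulator lists, and the gene most correlated with each member. Others named were chosen as examples after their values were seen. Vamp7 was not matched to an identifier. The values of some single genes are not reported here, though counts over lists include them.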

Additional observations from a re-analysis of the deposited data

How the results depend on the processing

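The 7 rises between days held under every alternative run, and 8 members rose with voom, the replicate block (Slc17a6 as the eighth in both), without GFP control replicate 1 (Slc17a7) and without GFP control replicate 3 (Slc17a6). Of the members that fell in the libraries labelled knockout (3), 1 was left with DESeq2, voom, the replicate block or embryo sex as a term, 0 with all 11 libraries in 1 fit and 5 without the count filter, and 1 to 5 when a library was left out. Genes called in that comparison (1213) numbered 2266 without the filter, 15 in the joint fit, 654 with embryo sex and 603 to 1785 when a library was left out. In the gain comparison the 2 called genes became 122 with DESeq2, 2001 with voom, 97 in the joint fit, 1 with embryo sex, and 0 (without GFP control replicate 2, with 693 at an unadjusted p under 0.05) to 415 (without GFP control replicate 1). L3mbtl3 lost its gain call (edgeR adjusted p = 0.0539) without GFP control replicate 2, and its loss call without knockout replicate 2 (0.0550), with embryo sex as a term (0.0605) and in the joint fit (1).

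Directions turned for uncalled values (log2). In the gain comparison, leaving out 1 library gave -0.092 to 0.23 for Syt1, -0.21 to 0.16 for Syp, -0.011 to 0.25 for Syn1, -0.25 to 0.060 for Vamp2, -0.13 to 0.21 for Stx1a, -0.52 to 0.33 for Slc17a7 and -0.40 to 0.20 for Rab3a. In each the ends came from leaving out GFP control replicate 1 (lowest) and GFP control replicate 3 (highest). Voom gave 0.027 for Syp and 0.21 for Slc17a7, and embryo sex as a term -0.044 for Stx1a. In the loss comparison Vamp2 ran from -0.12 (without knockout replicate 2) to 0.034 (without knockout replicate 1). Between days Slc17a6 was -0.18 with library totals, and -0.041 without GFP control replicate 1 to 0.28 without GFP control replicate 3. The transporter ratio ranged from -0.10 to 0.98 for gain, -0.28 to -0.10 for loss and -0.89 to 0.19 between days when a library was left out. The cause was not tested.

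Replicate numbers matched the libraries only in part, and the main fits did not pair them. GFP control replicate 3 and gain replicate 3 both had low GABAergic sums, of 14.2 and 12.2 CPM. Whether same-numbered libraries share an origin was not tested. Deviations of same-numbered libraries correlated at 0.168, -0.00362 and 0.273 between GFP controls and gain, and at -0.0528 and -0.00161 between het and knockout, and gain replicates 1, 2 and 3 correlated best with GFP controls 1, 1 and 3. With the replicate block 3, 948 and 10529 genes were called for gain, loss and between days, against 2, 1213 and 9955. Between days the third block holds GFP control replicate 3 alone and so in effect leaves it out. With 2 or 3 libraries a group, differences near the members' SE were not detectable.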
